A study of Arabidopsis thaliana with 15 samples.

Results

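Leaf senescence is the last stage of a leaf's life, in which the cells dismantle their chloroplasts and export nitrogen, carbon and minerals to growing organs. The expression of 10 genes of this programme was followed in 15 rosette RNA-seq libraries of Arabidopsis thaliana, the 10 being taken by gene identifier from the 32733 genes counted in each library. They are 3 senescence regulators (the NAC transcription factors ORE1 and NAP, and WRKY53), 3 senescence-associated genes (SAG12, SAG13 and SAG21) and 4 genes of chlorophyll breakdown (NYE1, PPH, PAO and NYC1).

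The libraries came from plants with T-DNA insertions in genes of pentatricopeptide repeat (PPR) or related proteins and from the wild type, in a study of RNA editing in mitochondria and plastids. There were 3 libraries each, numbered 1 to 3, of pgn (insertion in AT1G56570, PGN), mef37-1 (AT5G08305, MEF37), at3g50420 (AT3G50420), at5g10690 (AT5G10690) and the wild type Col-0. All plants were untreated and grew on plugs at 20 °C by day and 18 °C by night with 16 h of light. Rosettes of pgn, mef37-1, at3g50420 and Col-0 were labelled as 25.5 days old, libraries 1 and 2 of at5g10690 carry only the growth stage 1.14, and the label of its library 3 gives a planting and a harvest date 41 days apart. Each insertion line was represented by 1 allele. No source says what the numbers 1, 2 and 3 stand for, and whether the 3 libraries of a line came from separate plants is not settled, since the description of the series names 1 biological replicate. The p-values below therefore measure the spread between these libraries, which may be technical.

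In Arabidopsis leaves, NYC1 begins the breakdown of chlorophyll b by reducing it towards chlorophyll a, NYE1 (also called SGR1) removes the magnesium, PPH cleaves off the phytol tail, and PAO opens the ring of the green product, after which the pigment loses its colour. ORE1 and NAP are NAC transcription factors that promote senescence, and WRKY53 is a regulator that acts early in it. SAG12, a cysteine protease, is a classical marker of advanced developmental senescence, whereas SAG13, a short-chain dehydrogenase/reductase family member, and SAG21, a small late embryogenesis abundant protein, also respond to stress and pathogens.

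The window from 250 bases before to 50 bases after the annotated start was read from RefSeq's TAIR10.1 sequence for each of the 10 genes, whose coordinates were the same in the deposited annotation. It is shown for the members with the clearest differences between libraries. Capitals mark matches, on either strand, to CACGTG (the G-box), ACGTG (the core of the abscisic acid response element, which lies inside each G-box), TTGACC and TTGACT (2 forms of the W-box, bound by WRKY factors) and AAAATATCT (the evening element).
NAP (chr1:26121830-26122129, plus strand): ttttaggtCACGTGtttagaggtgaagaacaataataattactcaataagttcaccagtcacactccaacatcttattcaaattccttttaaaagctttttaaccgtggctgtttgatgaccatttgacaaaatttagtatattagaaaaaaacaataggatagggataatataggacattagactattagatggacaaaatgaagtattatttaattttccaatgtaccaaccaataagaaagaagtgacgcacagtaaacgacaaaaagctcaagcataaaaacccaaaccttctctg
SAG13 (chr2:12600664-12600963, plus strand): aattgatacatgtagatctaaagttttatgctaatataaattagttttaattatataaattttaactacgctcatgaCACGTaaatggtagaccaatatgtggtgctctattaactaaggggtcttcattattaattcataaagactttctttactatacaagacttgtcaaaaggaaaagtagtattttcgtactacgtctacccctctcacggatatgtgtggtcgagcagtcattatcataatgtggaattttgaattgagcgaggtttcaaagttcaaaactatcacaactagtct
SAG21 (chr4:1047056-1047355, minus strand): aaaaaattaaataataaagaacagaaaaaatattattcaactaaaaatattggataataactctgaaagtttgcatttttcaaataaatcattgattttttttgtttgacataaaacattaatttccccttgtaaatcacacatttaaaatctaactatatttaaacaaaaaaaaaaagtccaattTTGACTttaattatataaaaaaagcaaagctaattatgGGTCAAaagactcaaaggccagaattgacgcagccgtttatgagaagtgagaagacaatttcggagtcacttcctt
PPH (chr5:4454764-4455063, minus strand): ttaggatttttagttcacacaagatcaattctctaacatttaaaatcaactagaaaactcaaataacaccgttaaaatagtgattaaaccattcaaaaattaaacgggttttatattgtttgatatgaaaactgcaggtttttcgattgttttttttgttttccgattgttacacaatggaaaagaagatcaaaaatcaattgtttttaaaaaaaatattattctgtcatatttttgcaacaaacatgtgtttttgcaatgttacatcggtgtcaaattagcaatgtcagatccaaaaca
NYC1 (chr4:7686957-7687256, minus strand): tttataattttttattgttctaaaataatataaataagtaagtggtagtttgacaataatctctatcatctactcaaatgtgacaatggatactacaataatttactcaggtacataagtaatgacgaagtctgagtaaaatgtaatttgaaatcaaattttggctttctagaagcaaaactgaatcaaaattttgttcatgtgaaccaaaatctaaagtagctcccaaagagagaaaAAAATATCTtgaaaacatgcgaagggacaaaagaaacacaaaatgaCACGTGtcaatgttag
NAP and NYC1, which differed in opposite directions between libraries, both held a G-box. In NAP it lay at -242 to -237 and in NYC1 at 34 to 39, counted from the annotated start base as 0. CACGTG occurred in 7.11% and ACGTG in 25.8% of the 32546 such windows of the genome. SAG13 held 1 further ACGTG match, so that 3 of the 10 windows had one. SAG21 held TTGACC and TTGACT, which were found in 13.8% and 21.4% of all windows. TTGACC was also present 2 times each in the windows of ORE1 and WRKY53. The evening element of NYC1, at -12 to -4, occurred in 2.64% of windows. None of these letters was in the windows of PPH, PAO, NYE1 and SAG12. A match is a description of the sequence and not a tested site.

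The libraries held between 19555274 and 30901304 counts (median 26101740), and 59.1% to 65.0% of them fell on plastid genes. As a check of the labels, PGN had 9, 6 and 16 counts in pgn, against 23, 36 and 22 in Col-0 (libraries 1, 2 and 3), and AT5G10690 had 1, 3 and 4 counts in at5g10690, against 318, 319 and 201 in Col-0. MEF37 had 17, 20 and 12 counts under the label mef37-1 and was thus not lower there, against 8, 8 and 21 in Col-0. AT3G50420 overlapped as well, with 10, 11 and 13 counts in the libraries labelled at3g50420, against 11, 16 and 14 in Col-0. These 2 lines are named below as their libraries are labelled. Counts summed over the exons of a gene do not separate full-length from partial transcripts. They therefore do not test whether the full-length transcript was lost in these lines. For the former line, the study itself reports from RNA-seq that full-length transcripts of the disrupted gene were absent. It also reports strongly reduced editing at several mitochondrial sites in that line. The leaf markers RBCS1A, LHCB1.3, RCA and CA1 were present in every library. Of the root markers, EXPA7 was at 0 in all 15 libraries, CASP2 in 14 and CASP1 in 9, with at most 0.101 CPM. Of the seed markers, CRU3 was at 0 in all 15 libraries, SESA1 in 11 and CRA1 in 9, with at most 0.267 CPM.

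The 10 genes spanned a wide range of levels. Per length of exon, NYC1 was the most abundant member, at 66.5 ± 11.7 RPKM (reads per kilobase of exon, scaled to library size, SD over the 15 libraries). PPH followed at 15.9 ± 6.36 RPKM, PAO at 14.6 ± 3.24 RPKM and SAG21 at 11.9 ± 3.93 RPKM. Among the 9 members with counts, only the step from NYC1 to PPH exceeded the sum of the SDs of the 2 genes. The next group held SAG13 at 5.32 ± 8.46 RPKM, NYE1 at 4.29 ± 1.68 RPKM, NAP at 3.89 ± 2.58 RPKM, ORE1 at 2.56 ± 1.54 RPKM and WRKY53 at 2.04 ± 1.13 RPKM. Neighbours in this order differed by less than their spread. Reads were mapped without splicing, so that reads across exon junctions may be missing from genes with many exons, such as NYC1 with 10 exon blocks. That loss would be shared by all libraries of a gene.

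SAG12 (AT5G45890, chromosome 5, 18613239 to 18614963) had no count in any of the 15 libraries, which together held 384236269 counts. A limit of 3 counts allows up to 0.0971 CPM (counts scaled to library size) in the largest library and 0.153 CPM in the smallest, for counting error only. These limits are scaled to the total count alone, without the further scaling between libraries of the other CPM values. All other members had counts in every library. Hence 9 of the 10 genes passed the filter on low counts and were tested.

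Members passed the test between libraries of different number, but not between lines. These tests are not alike, since the line comparisons had n = 3 each and, unless stated, no term for the number. Large differences between lines could thus go uncalled: ORE1 in at3g50420 over Col-0 had a log2 fold change of -1.05 ± 0.61 (SE). Libraries of number 3 were compared with those of numbers 1 and 2 over the 5 lines (n = 5 each), with the line as a term of the fit. If a number marks a shared growth or harvest, which no label states, its 5 libraries are not independent replicates of it. The p-values would then not measure how far such growths or harvests differ in general. A gene was called where edgeR's quasi-likelihood test gave a Benjamini-Hochberg adjusted p under 0.05 over the 17893 genes tested. For number 3 over number 1, PPH was called higher, and SAG13, NYC1 and NYE1 were called lower. Over all genes, 15.7% were called higher and 18.2% lower, beside 1 and 3 of the 9 members tested. Values of the groups did not overlap for 3 members, PPH, SAG13 and NYC1, and for 17.8% of all genes. For number 3 over number 2, PPH, SAG21, NAP and PAO were called higher and NYC1 lower. The background was 15.5% higher and 17.4% lower, and 4 members had groups that did not overlap, against 24.1% of all genes. Both comparisons use the same 5 libraries of number 3.

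**Figure D1:**
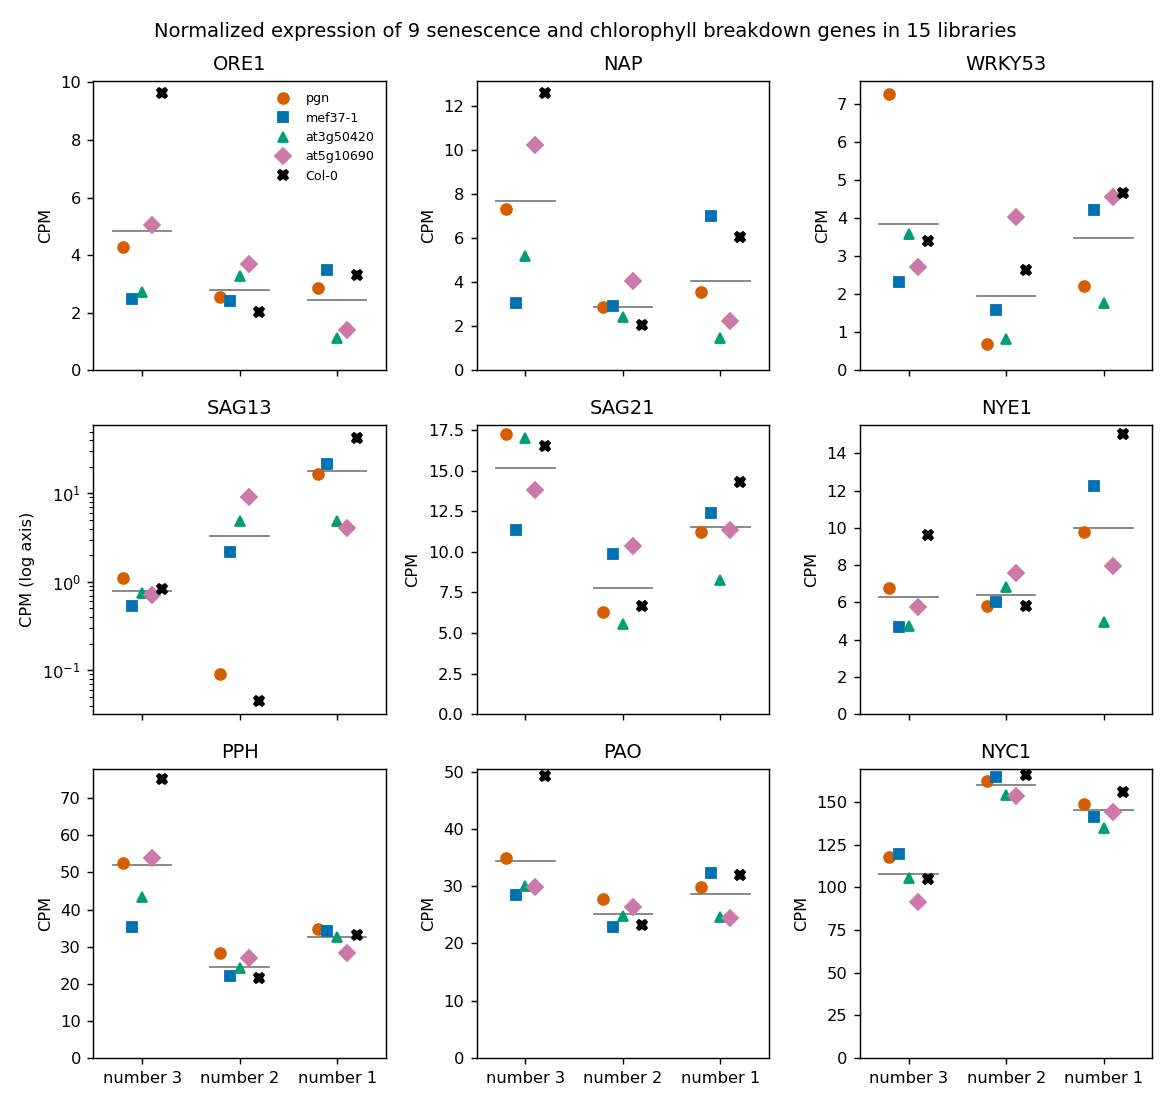
Normalized expression in CPM (vertical axis, from 0, except SAG13 on a log axis) of the 9 members with counts, by library number (horizontal axis), with 1 point per library coloured by line and a grey bar at the mean of the 5 libraries. PPH was between 35.2 and 75.3 CPM in the libraries of number 3, above the 21.5 to 28.4 CPM of number 2 and the 28.3 to 34.8 CPM of number 1, while NYC1 was lowest in number 3 in every line.

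The chlorophyll breakdown genes did not move together. PPH (AT5G13800, chromosome 5, 4451733 to 4454813), whose product removes the phytol tail, had 52.6, 35.2, 43.5, 54.0 and 75.3 CPM in the libraries of number 3 of pgn, mef37-1, at3g50420, at5g10690 and Col-0. In the same order of lines it had 28.4, 22.1, 24.2, 26.9 and 21.5 CPM in number 2 and 34.8, 34.3, 32.5, 28.3 and 33.2 CPM in number 1. All libraries of number 3 were above all others. Col-0 had both the highest value, in number 3, and the lowest, in number 2. The log2 fold change of number 3 over number 1 was 0.64 ± 0.15 (SE; edgeR, adjusted p = 0.00748), and that of number 3 over number 2 was 1.06 ± 0.16 (edgeR, adjusted p = 0.000424). Within lines the difference from number 1 ran from 0.04 in mef37-1 to 1.18 in Col-0 on the log2 scale, so that it was nearly nil in 1 of the 5 lines.

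NYC1 (AT4G13250, chromosome 4, 7684156 to 7687006), the chlorophyll b reductase, went the other way. It had 118, 119.7, 105, 91.1 and 105 CPM in number 3 of pgn, mef37-1, at3g50420, at5g10690 and Col-0. Number 2 had 162, 165, 154, 153 and 166 CPM, and number 1 had 149, 141, 135, 144 and 156 CPM. The 5 libraries of number 3 were below the other 10. The log2 fold change was -0.43 ± 0.09 over number 1 (edgeR, adjusted p = 0.00362) and -0.57 ± 0.09 over number 2 (edgeR, adjusted p = 0.000649). Each of the 5 lines showed this direction, and within-line differences of number 3 from number 2 ran from -0.75 in at5g10690 to -0.46 in mef37-1. The lowest value, 91.1 CPM, was that of the at5g10690 library harvested 41 days after planting.

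PAO (AT3G44880, chromosome 3, 16383595 to 16386344), which opens the pigment ring, had 34.9, 28.4, 30.1, 29.8 and 49.2 CPM in number 3, against 27.8, 22.9, 24.8, 26.4 and 23.3 CPM in number 2 and 29.8, 32.3, 24.7, 24.4 and 31.9 CPM in number 1. Col-0 of number 3 stood above the rest. The libraries of numbers 3 and 2 did not overlap, and the log2 fold change between them was 0.44 ± 0.13 (edgeR, adjusted p = 0.0207). The call was lost without the Col-0 line (adjusted p = 0.0793 by edgeR) and without Col-0 library 2 (0.0673), Col-0 library 3 (0.0535) or mef37-1 library 2 (0.0531). Over number 1 the fold change was 0.25 ± 0.13, which did not pass the test (edgeR, adjusted p = 0.15). PAO shares 11 exon bases with AT3G44870 on the same strand, and reads over both genes were not counted.

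NYE1 (AT4G22920, chromosome 4, 12016420 to 12018643), the magnesium dechelatase, had 6.78, 4.67, 4.74, 5.77 and 9.62 CPM in number 3. In number 2 it had 5.81, 6.03, 6.82, 7.56 and 5.79 CPM, and in number 1 it had 9.79, 12.3, 4.95, 7.94 and 15.0 CPM. The values of numbers 3 and 1 overlapped, but number 3 was lower in each of the 5 lines. The log2 fold change of -0.65 ± 0.22 over number 1 passed the test (edgeR, adjusted p = 0.0359). This call rested on few libraries: it was lost in 7 of the 15 fits that left out 1 library, with adjusted p up to 0.113 by edgeR without Col-0 library 1. Between numbers 3 and 2 NYE1 differed by -0.08 ± 0.22 on the log2 scale (edgeR, adjusted p = 0.823).

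**Figure D2:**
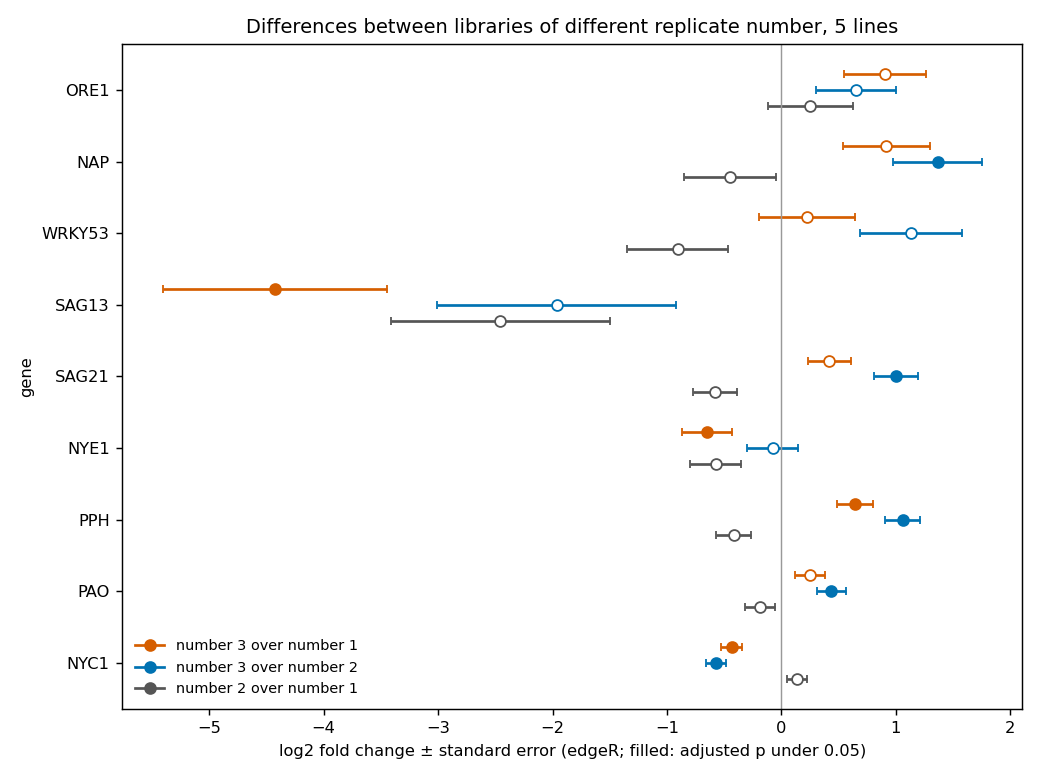
Log2 fold changes ± standard error (horizontal axis) of the 9 tested members (vertical axis) between libraries of different number over 5 lines, with filled points for adjusted p under 0.05 by edgeR. PPH lay above 0 and NYC1 below 0 against both other numbers, and SAG13 had the most negative value, -4.42, for number 3 over number 1.

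Among the senescence-associated genes, SAG13 (AT2G29350, chromosome 2, 12600914 to 12602556) varied most. It had 1.10, 0.528, 0.749, 0.706 and 0.838 CPM in number 3 of pgn, mef37-1, at3g50420, at5g10690 and Col-0. Number 2 had 0.0915, 2.19, 4.84, 9.13 and 0.0448 CPM, and number 1 had 16.5, 21.3, 4.85, 4.02 and 42.3 CPM. In Col-0 these values rest on 25 counts in library 3, 1 count in library 2 and 1402 counts in library 1. The libraries of number 3 were alike and all below those of number 1, whereas those of number 2 were split between near 0 in pgn and Col-0 and several CPM in at3g50420 and at5g10690. The log2 fold change of number 3 over number 1 was -4.42 ± 0.98 (edgeR, adjusted p = 0.00491), and the 5 lines differed by -5.63 to -2.48. Number 3 over number 2 was -1.97 ± 1.04 and did not pass the test (edgeR, adjusted p = 0.168), with pgn and Col-0 in the opposite direction from the other lines.

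SAG21 (AT4G02380, chromosome 4, 1046042 to 1047105) had 17.2, 11.4, 17.0, 13.8 and 16.5 CPM in number 3. The values were 6.27, 9.88, 5.58, 10.3 and 6.64 CPM in number 2 and 11.2, 12.4, 8.28, 11.4 and 14.3 CPM in number 1. Number 3 was above number 2 without overlap, with a log2 fold change of 1.00 ± 0.19 (edgeR, adjusted p = 0.00194). Over number 1 the value was 0.42 ± 0.19 (edgeR, adjusted p = 0.102), and the groups overlapped. SAG21 shares 180 of its 968 exon bases with the microRNA gene AT4G04125 on the same strand, so that reads in this stretch were not counted for either gene. AT4G04125 had 0 counts in all libraries, which cannot show whether reads fell in the shared stretch, since they were not assigned.

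The 3 regulators were low and scattered. NAP (AT1G69490, chromosome 1, 26122080 to 26123514) had 7.30, 3.04, 5.21, 10.2 and 12.6 CPM in number 3, against 2.88, 2.94, 2.40, 4.07 and 2.06 CPM in number 2. Number 3 was higher in each line, but by 0.05 in mef37-1 and by 2.60 in Col-0 on the log2 scale. The log2 fold change was 1.37 ± 0.38 (edgeR, adjusted p = 0.0162). It no longer passed without the Col-0 line (adjusted p = 0.0736 by edgeR), without Col-0 library 2 (0.0517) or without at5g10690 library 3 (0.0593). In number 1 NAP had 3.56, 6.99, 1.47, 2.25 and 6.03 CPM, and number 3 over number 1 gave 0.92 ± 0.38 (edgeR, adjusted p = 0.0804).

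ORE1 (AT5G39610, chromosome 5, 15858398 to 15859911) had 4.29, 2.47, 2.72, 5.06 and 9.62 CPM in number 3, 2.56, 2.41, 3.29, 3.68 and 2.02 CPM in number 2, and 2.85, 3.50, 1.13, 1.39 and 3.32 CPM in number 1. The Col-0 library of number 3 was again the highest. Neither the fold change over number 1, 0.91 ± 0.36 (edgeR, adjusted p = 0.0664), nor that over number 2, 0.65 ± 0.35 (edgeR, adjusted p = 0.176), passed the test. WRKY53 (AT4G23810, chromosome 4, 12392370 to 12393982) had 7.27, 2.33, 3.59, 2.71 and 3.39 CPM in number 3, 0.686, 1.58, 0.814, 4.02 and 2.65 CPM in number 2, and 2.23, 4.20, 1.76, 4.56 and 4.65 CPM in number 1. Here pgn had both the highest and the lowest library. The gene overlaps AT4G23800 on the opposite strand over 311 of its 1514 exon bases, and counting was by strand. The log2 fold change was 0.23 ± 0.42 over number 1 (edgeR, adjusted p = 0.709) and 1.13 ± 0.45 over number 2 (edgeR, adjusted p = 0.0676).

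Libraries of number 2 and number 1 were closer to each other. None of the 9 members was called for number 2 over number 1 by edgeR, while 4 had an unadjusted p under 0.05: SAG21, PPH, NYE1 and SAG13. Their log2 fold changes were -0.58 ± 0.19, -0.42 ± 0.15, -0.57 ± 0.22 and -2.46 ± 0.96. None was called under any of 23 other settings, DESeq2 included. Over all genes, 3745 of 17893 had an unadjusted p under 0.05. Of all genes 2.48% were called, and 7.03% had groups that did not overlap, as against none of the members.

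Several measures moved with the number. The summed level of the 4 leaf markers was 4960 to 15230 CPM in number 3 (median 10140), against 18680 to 22300 CPM in number 2 and 14080 to 22210 CPM in number 1. The sum of 5 flower markers, AP1, AG, SEP3, AP3 and FUL, was 2.25 to 7.81 CPM in number 3, against 2.04 to 4.22 CPM in number 2 and 1.72 to 2.16 CPM in number 1, with FUL making up nearly all of it and the other 4 at or below 0.196 CPM each. AP1 was at 0 in 14 of the 15 libraries. The 3 root markers summed to at most 0.101 CPM. The part of these differences in the members' values was not tested, and in whole rosettes fewer cells of a type and less RNA per cell cannot be told apart. The at5g10690 library of number 3, the one with the deviating age label, had the lowest leaf marker sum. Without its line, number 3 over number 1 gave 3791 called genes in place of 6064, and PPH, SAG13 and NYC1 were still called.

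Other genes of the same pathways were read from lists of related genes. Of 11 further chlorophyll breakdown genes, none was called higher and 2 lower for number 3 over number 1 (median log2 fold change -0.26, against 0.01 over all genes). Over all genes, 15.7% were called higher and 18.2% lower, so that 2 of 11 lower was near that share. The same shares stand beside the counts of the other lists for number 3 over number 1. MES16, a methylesterase of chlorophyll catabolites, had 0.449 ± 0.177 CPM in number 3 and 1.53 ± 0.586 CPM in number 1 (SD, n = 5 each), a log2 fold change of -1.75 (edgeR, adjusted p = 0.000659). NOL, the partner of NYC1 in the reduction of chlorophyll b, had 5.09 ± 0.608 CPM in number 3 and 7.37 ± 1.02 CPM in number 1, a log2 fold change of -0.54 (edgeR, adjusted p = 0.00379). Both chlorophyll b reductase genes were thus lower in number 3. NYE2, a close relative of NYE1, was not called over number 1, at -0.12 ± 0.61 on the log2 scale, but was called higher over number 2. It had 1.34 ± 1.15 CPM in number 3 and 0.255 ± 0.241 CPM in number 2, a log2 fold change of 2.30 (edgeR, adjusted p = 0.0314). The direction of NYE2 over number 2 was not the same in all lines. Of 13 genes of chlorophyll synthesis and photosynthesis, 8 were called lower and 1 higher (median -0.55). Lower were RBCS1A, the small subunit of Rubisco, at -1.15, CA1, a carbonic anhydrase, at -1.41, and PORB, a chlorophyll synthesis enzyme, at -0.84. GLK1, a regulator of chloroplast genes, was higher by 0.71.

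Of 22 other senescence regulators tested, 5 were called higher and 6 lower (median -0.37). ORS1, the NAC gene most closely related to ORE1, was higher by 1.196 ± 0.298 in number 3 over number 1 (edgeR, adjusted p = 0.0091), and so were PIF4 by 0.50 and PIF5 by 0.66, bHLH factors of light signalling. WRKY75 at -4.24, SAUR36 at -2.79 and NAC055 at -2.62 were lower. Among 21 further senescence-associated and remobilisation genes tested, 2 were called higher and 9 lower (median -0.19). GAMMA-VPE, a vacuolar processing enzyme, had 764.6 ± 464 CPM in number 3 and 211 ± 20.9 CPM in number 1, and GLN1;4, a cytosolic glutamine synthetase, had 15.9 ± 8.93 CPM in number 3 and 3.09 ± 1.23 CPM in number 1. The dark-inducible genes ASN1, DIN10 and SEN1 were lower, with log2 fold changes of -4.18, -3.65 and -3.39. ASN1, an asparagine synthetase, had 3.67 ± 3.75 CPM in number 3 and 54.1 ± 23.2 CPM in number 1.

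Hormone, stress and clock genes were read in the same way. Jasmonate genes were called lower in 7 of 9 cases (median -1.32), with VSP1, a vegetative storage protein, at -7.52, JAZ10, a repressor, at -3.56 and AOS, a synthesis enzyme, at -1.42. Salicylic acid defence genes were called lower in 5 of 13 cases (median -1.39), among them PR2, a glucanase, at -3.47. The abscisic acid response genes were split, with 3 of 10 called higher (RD29A 1.24, RAB18 0.92 and ABI2 0.92) and 4 lower, of which HAI1 had -3.01, KIN1 -1.12 and COR47 -0.80. Of 7 rapid stress and touch genes, TCH4 (-2.39) and ZAT12 (-1.55) were called lower. Of 10 clock genes, ELF4 (0.99) and GI (0.27) were called higher and TOC1 (-0.47) lower. The call of GI was lost in 13 of 24 fits, that of ZAT12 in 2 and that of PORB in 1. The share over all genes was 15.7% higher and 18.2% lower, and no test compared the lists with it or with each other.

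Over number 2 the same lists gave other counts, beside 15.5% of all genes called higher and 17.4% lower. Of the photosynthesis genes, 1 of 13 was called higher and 11 lower, and of the further chlorophyll breakdown genes 1 of 11 was called higher and 3 lower. The regulators had 6 of 22 called higher and 1 lower, and the remobilisation genes 6 of 21 higher and 6 lower. Salicylic acid genes, of which none was called higher over number 1, had 2 of 13 called higher and none lower over number 2. These were EDS5, a transporter of the salicylic acid pathway, at 1.12 ± 0.31 (edgeR, adjusted p = 0.0143), and CBP60G, a regulator of salicylic acid synthesis, at 0.84 ± 0.30 (edgeR, adjusted p = 0.0474). EDS5 was higher in every line, but CBP60G was not. Abscisic acid genes had 5 of 10 called higher and none lower. Jasmonate and rapid stress genes had 1 of 9 and 1 of 7 called lower and none higher, and clock genes 2 of 10 higher and 1 lower.

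**Figure D3:**
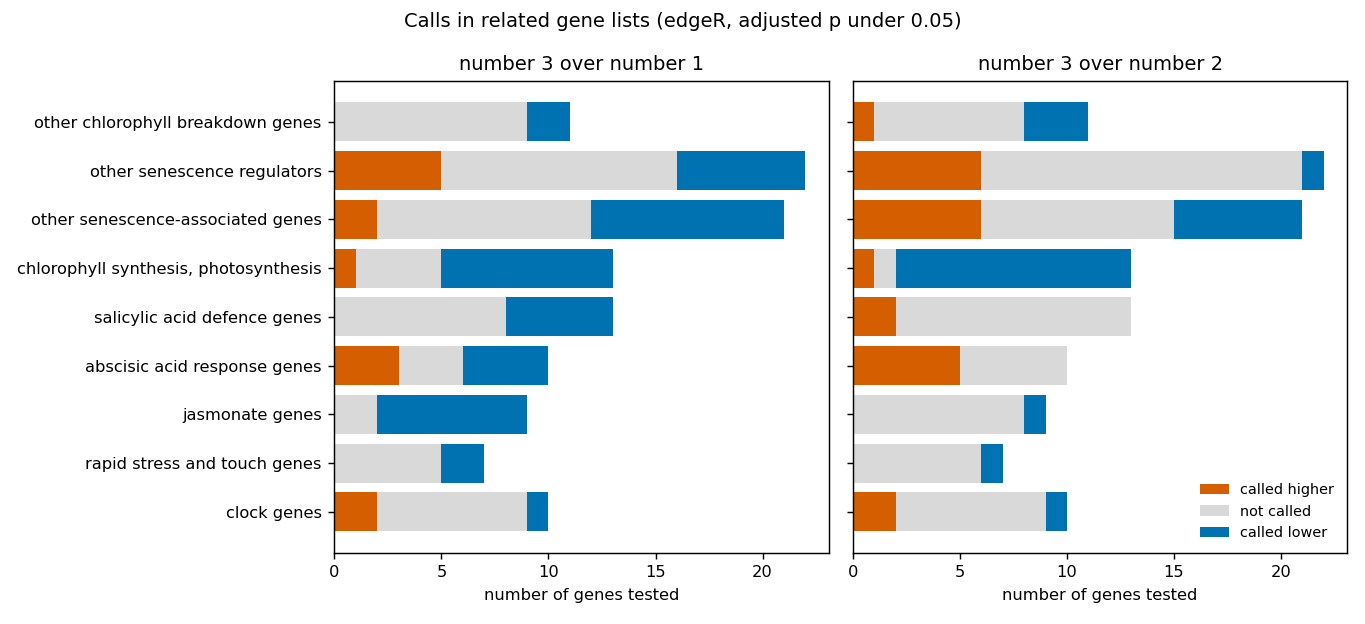
Number of tested genes (horizontal axis) of 9 related lists (vertical axis) called higher, not called and called lower by edgeR for number 3 over number 1 and for number 3 over number 2. The photosynthesis list had 8 and 11 of 13 genes called lower, and the jasmonate list 7 and 1 of 9.

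No member passed the test between an insertion line and Col-0. In each comparison (n = 3 each) none of the 9 tested members was called by edgeR's quasi-likelihood test, and the lowest adjusted p was 0.987, for at3g50420. None of the members had groups that did not overlap. Over all genes, the share called was 0.0% in pgn, 0.00569% in mef37-1, 0.0% in at3g50420 and 0.0114% in at5g10690, and the share without overlap was 4.63%, 5.78%, 8.05% and 3.37%. These are 0, 1, 0 and 2 genes called by edgeR, with 153, 247, 512 and 55 genes at an unadjusted p under 0.05 and 1, 5, 4 and 4 genes called by DESeq2. With the library number as a block the counts were 1, 2, 1 and 2. No member was called with the block, with a lowest adjusted p of 0.693 by edgeR. The study itself reports more differentially expressed genes in pgn and in mef37-1 leaves than were called here. Its counts come from its own RNA-seq analysis, for which it refers to an earlier description, and the difference was not examined.

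The values below zero were many, but all 4 comparisons share the 3 Col-0 libraries. The median log2 fold change over the 9 members was -0.18 in pgn, -0.41 in mef37-1, -0.78 in at3g50420 and -0.29 in at5g10690, against -0.01, -0.02, -0.01 and 0.00 over all genes tested. The number of members below zero depended on the library number. In at5g10690 it was 9 of 9 in number 3, 1 of 9 in number 2 and 9 of 9 in number 1. In pgn it was 5, 3 and 8 of 9, in mef37-1 8, 3 and 5 of 9, and in at3g50420 6, 3 and 9 of 9, again for numbers 3, 2 and 1.

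Among single members, NYE1 had 5.50 ± 1.14 CPM in at3g50420 and 10.1 ± 4.64 CPM in Col-0 (SD, n = 3 each). Its log2 fold change of -0.89 ± 0.35 was the only member value with an unadjusted p under 0.05 without the block and failed the adjustment (edgeR, adjusted p = 0.987). With the block, 2 members passed the unadjusted level in pgn, SAG13 at -0.87 ± 0.35 and NYE1 at -0.40 ± 0.15. In at3g50420 there were 2 as well, NAP at -1.06 ± 0.39 and WRKY53 at -0.92 ± 0.37. All of these members failed the adjustment. Over all genes, 1239 of 17521 in pgn and 1266 of 17599 in at3g50420 passed the unadjusted level with the block. SAG13 was lower in pgn than in Col-0 only in number 1, at -1.36 on the log2 scale. It was higher by 0.39 in number 3 and by 0.79 in number 2. NYC1 had log2 fold changes of 0.00 ± 0.24 in pgn, 0.00 ± 0.23 in mef37-1, -0.11 ± 0.26 in at3g50420 and -0.11 ± 0.29 in at5g10690. For SAG13 the standard errors were 1.66 to 2.02 on the log2 scale without the block and 0.35 to 1.61 with it.

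**Figure D4:**
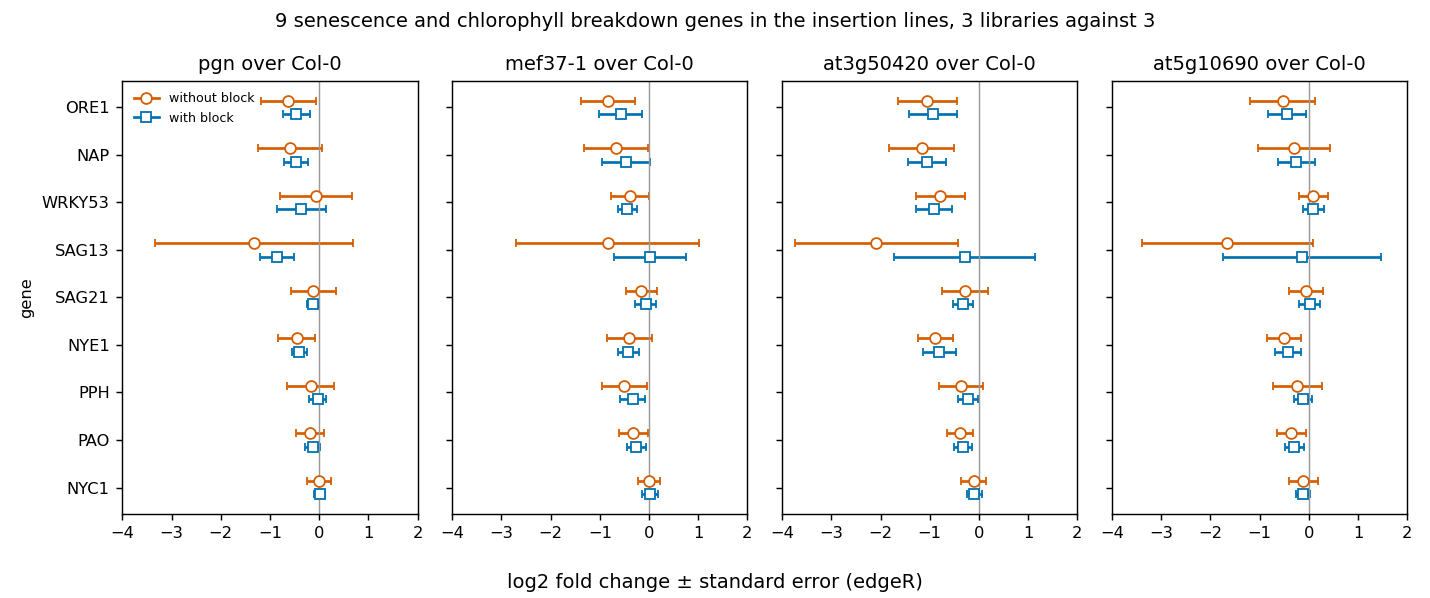
Log2 fold changes ± standard error (horizontal axis, 1 panel per insertion line over Col-0) of the 9 tested members (vertical axis), without the library number as a block (circles) and with it (squares). No value passed the adjusted threshold, and the error bars of SAG13 without the block were the widest, with standard errors up to 2.02.

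For each member, the non-member genes with the most similar pattern were found by Pearson's r of log2 CPM over the 15 libraries, which share lines, numbers and depth, so that r is given as a description. SAG13 was most like WRKY75 (r = 0.97), a WRKY factor also named for its lower level in number 3, and AT1G68620 (0.97). NYC1 was most like ACA1, a carbonic anhydrase (0.984), and AT1G19600 (0.974). PPH was closest to PPa5 (0.967), a soluble pyrophosphatase, and AAP4 (0.966), an amino acid permease. PAO was closest to AT1G12050 and AT4G22240 (0.953 each). NAP and ORE1 had the same first gene, AR791 (AT1G52080), with r = 0.943 and 0.899, followed by AT5G18130 (0.942) for NAP and AT2G38800 (0.895) for ORE1. SAG21 was most like the cyclic nucleotide gated channel gene CNGC3 (0.935) and HLECRK (0.934), a lectin receptor kinase gene. NYE1 was most like AT4G36010 (0.938) and AT5G37540 (0.937). WRKY53 was most like AT1G13470 (0.911) and AT5G50200 (0.908), an accessory gene of nitrate transport.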

How the data were processed

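Total RNA of rosettes was depleted of ribosomal RNA and sequenced by strand. The authors mapped single-end reads with STAR without splicing, kept all best positions, and deposited counts per gene made with featureCounts 1.5.0-p2 on the exons of the TAIR10 annotation, without normalization, multiply mapped reads included. Reads over 2 genes on the same strand were not assigned.

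In R 4.3.3 with edgeR 4.0.16, counts were filtered (filterByExpr, minimum count 10), scaled by TMM and tested by quasi-likelihood with Benjamini-Hochberg adjustment at 0.05. The test gives no standard error. The standard errors shown were derived as the absolute log2 fold change divided by the square root of the F statistic. Each insertion line was fitted with Col-0, and library numbers were compared over 15 libraries with line as a term. Libraries of the same number deviated together from their group means: the lowest correlation was 0.647 for pgn, 0.371 for mef37-1, 0.272 for at3g50420 and 0.307 for at5g10690, each with Col-0. The highest correlation between different numbers was -0.185, 0.170, 0.302 and 0.390, so that library 2 of at3g50420 and of at5g10690 was slightly closer to Col-0 library 1 than to Col-0 library 2. Every same-number correlation was above 0.1, and the block on the number was therefore run beside each line comparison. CPM and RPKM are TMM-scaled counts, except in the limits for SAG12, which use total counts alone. No 2 libraries of the same line agreed within sampling noise. Alternatives were DESeq2 1.42.0, other scalings and filters, other fits and leaving out libraries or lines. Leaving out the Col-0 line was added after seeing the data. The scripts were tested on simulated data.

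The members and the related lists were chosen with earlier results of these data known. Named are the 10 members, the 4 genes with insertions, in each related list the called genes with the largest change in number 3 over number 1 (up to 3 in each direction) and the same direction in 5 of 5 lines, and for each member the 2 genes most like it. NYE2, EDS5 and CBP60G were named after their values were seen. At 15 libraries of 19555274 counts or more, the limits given for SAG12 cover counting error only. The standard errors of the fold changes also cover the spread between libraries.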

Additional observations from a re-analysis of the deposited data

Results flagged for a closer look

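WRKY53 in the pgn library of number 3 had 7.27 CPM and lay far from the other 4 libraries of number 3, which had 2.33 to 3.59 CPM. Its gap to the nearest library was 0.746 of the range of the 5, above Dixon's critical value of 0.71. Of 27 groups of 5 libraries examined, 1 stood out in this way, and chance alone gives about 1 in 20.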

How the results depend on the processing

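The calls of PPH, SAG13 and NYC1 in number 3 over number 1, and of PPH, SAG21 and NYC1 in number 3 over number 2, kept their direction and side of the threshold under all 23 other settings. Counts of called genes in the line comparisons moved with the replicate block to 1 in pgn, 2 in mef37-1 and 1 in at3g50420, with DESeq2 to 1, 5, 4 and 4 (at5g10690 last), with all lines in 1 fit to 1, 2 and 3, with that fit and the block to 1, 4 and 4, and without a filter to 1 in at3g50420. The block changed no member's call. Leaving out 1 library gave 0 to 0 called genes in pgn, mef37-1 and at3g50420, 0 to 2 in at5g10690, 4393 to 6190 in number 3 over number 1, 0 to 683 in number 2 over number 1 (0 without Col-0 library 2 or pgn library 2) and 4624 to 6311 in number 3 over number 2. Without the at5g10690 line number 3 over number 1 gave 3791. For number 2 over number 1 the count was 840 without the line term, 1163 with DESeq2 and 0 without the Col-0 line (2665 genes at an unadjusted p under 0.05). Calls were gained for ORE1 over number 1 without the line term (adjusted p = 0.0461 by edgeR) and with DESeq2 (0.0414), for NAP over number 1 with DESeq2 (0.0406), and for WRKY53 over number 2 without the at5g10690 line (0.0249 by edgeR) and with DESeq2 (0.0165). With 1 library left out, edgeR also called ORE1 over number 1 in 4 fits (lowest adjusted p 0.0222, without mef37-1 library 1), NAP over number 1 in 2 (0.0075, without mef37-1 library 3), SAG21 over number 1 in 1 (0.025, without mef37-1 library 3) and WRKY53 over number 2 in 3 (0.0267, without at5g10690 library 3). The call of NYE1 over number 1 was lost without the at5g10690 line (0.076 by edgeR) and without the Col-0 line (0.0532). The cause of these moves was not tested.

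No member that was called changed sign. Uncalled log2 fold changes changed sign for NYC1 in pgn (0.015 with the replicate block, 0.01 with RLE scaling, 0.011 with DESeq2, 0.009 with all lines in 1 fit and 0.025 with that fit and the block), NYC1 in mef37-1 (-0.003 without a filter), SAG13 in mef37-1 (0.017 with the block), SAG21 in at5g10690 (0.019 with the block and 0.005 with all lines and the block) and NYE1 in number 3 over number 2 (0.009 without the at5g10690 line). With 1 library left out, the ranges of uncalled values that changed sign were for pgn over Col-0, ORE1 -0.996 to 0.26, NAP -1.10 to 0.15, WRKY53 -1.29 to 0.43, SAG13 -4.49 to 3.65, SAG21 -0.52 to 0.20, PPH -0.49 to 0.48, PAO -0.40 to 0.14 and NYC1 -0.18 to 0.12. For mef37-1 over Col-0 they were ORE1 -1.21 to 0.061, NAP -1.21 to 0.086, SAG13 -3.39 to 4.08, SAG21 -0.45 to 0.097, PPH -0.82 to 0.16, PAO -0.54 to 0.020 and NYC1 -0.18 to 0.13. For at3g50420 over Col-0 they were SAG13 -2.66 to 2.89, SAG21 -0.84 to 0.005, PPH -0.69 to 0.28 and NYC1 -0.30 to 0.031. For at5g10690 over Col-0 they were ORE1 -0.96 to 0.37, NAP -1.12 to 0.47, WRKY53 -0.092 to 0.33, SAG13 -2.64 to 3.30, SAG21 -0.37 to 0.19, PPH -0.64 to 0.43 and NYC1 -0.30 to 0.075. For number 3 over number 1 they were WRKY53 -0.30 to 0.54. For number 2 over number 1 they were ORE1 -0.017 to 0.59 and NAP -0.71 to 0.030. For number 3 over number 2 they were NYE1 -0.26 to 0.12. Some of these values changed sign in up to 3 of the fits.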

Other observations

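The related lists were also read in the line comparisons, where edgeR called none of their genes. For photosynthesis genes the median log2 fold change over 13 genes was 0.25 in pgn, 0.26 in mef37-1, 0.48 in at3g50420 and 0.01 in at5g10690, and for salicylic acid defence genes it was -0.54, -0.31, -0.89 and -0.38 over 10 to 12 genes. The other senescence regulators had -0.09, -0.20, -0.66 and -0.05. All 4 comparisons share the Col-0 libraries.

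For number 2 over number 1, where no member was called, 3 of 13 salicylic acid genes, 1 of 9 jasmonate genes, 1 of 10 abscisic acid genes, 1 of 22 regulators and 1 of 21 remobilisation genes were called lower, and none of the photosynthesis, chlorophyll breakdown, stress or clock genes in either direction. KIN1, a cold and abscisic acid responsive gene, was the abscisic acid gene called, with 5.72 ± 0.249 CPM in number 2 and 12.3 ± 3.87 CPM in number 1 (log2 fold change -1.07 ± 0.20, edgeR, adjusted p = 0.0227).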
